A study of Mus musculus with 16 samples.

Results

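Mature medullary thymic epithelial cells (mTEC) of 2 mouse lines were compared. The members were the 8 mature mTEC libraries of the 16 libraries in the series, chosen by the cell type and line in their labels: 4 of the Rbfox1 line and 4 of the Rbfox2 line. Each line gave 2 control mice and 2 mice in which the gene was deleted in thymic epithelium (tKO). Control mice of the Rbfox1 line were Rbfox1 lox/lox with 2 wild-type Foxn1 alleles, and tKO mice carried the same floxed alleles with Foxn1 cre on 1 allele, so that Cre was made in cells that use the Foxn1 locus. The Rbfox2 line had the same 2 genotypes with Rbfox2 lox/lox, and every mouse used here was therefore homozygous for a floxed allele. The labels give the strain as C57BL/6 and the age as 4 to 6 weeks, while by the methods the background of both lines was mixed, from 129S2/Sv and C57BL/6J. Each genotype of each line had 1 female and 1 male mouse, each mouse gave 1 library, and replicates are separate mice. By the methods each tKO mouse had a littermate of its own sex as control, so that the 4 mice of a line form 2 pairs of related mice, which the tests below treat as 4 separate mice except where pairs are named. The cells were sorted as CD45-, EpCAM+, Ly51-, UEA+ and MHCII high, with 10000 cells per library. The remaining 8 libraries, immature mTEC of the same mice, serve as a comparison at the end. The question was which cell programmes and subpopulation markers differ between the mature mTEC of both cohorts, with genotype as a covariate. This covariate is 1 tKO term for both lines, although the deleted gene differs between them. Unlike effects of the 2 deletions can therefore enter the line difference. Line and litter cannot be told apart in this design, and the sources used here do not give the sorting days.

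Medullary epithelial cells present peripheral self-antigens to developing T cells, so that self-reactive thymocytes are deleted or become regulatory T cells. The transcriptional regulator AIRE drives many of these tissue-restricted antigens (TRA) in mature mTEC, and FEZF2 drives others. After the AIRE stage, mTEC can take on features of other epithelia, among them cornified keratinocyte, tuft, microfold, ciliated, neuroendocrine, muscle and secretory types. RBFOX1 and RBFOX2 are RNA-binding splicing regulators that are best known from brain and muscle.

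The libraries held 3737884 to 4636367 counts assigned to genes (median 4313347), with the 2 lines overlapping in depth. Levels are given in CPM, which are counts scaled to one common library total after TMM normalization (trimmed mean of M values), and they are not divided by transcript length. Differences are log2 fold changes of the Rbfox2 line over the Rbfox1 line, so a negative value is lower in the Rbfox2 line, with their standard error (SE) and the adjusted p of edgeR's quasi-likelihood test over all 17398 genes tested. A gene passed at an adjusted p under 0.05. Pairs of levels are the mean ± SD of the 4 libraries of the Rbfox1 line, then of the 4 of the Rbfox2 line. In bulk libraries, fewer cells of a type and less RNA per cell cannot be told apart.

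The deleted genes checked the labels. Rbfox2 (mm10 chr15:77078990-77307004) was at 68.0, 69.5, 66.1 and 60.6 CPM in the 4 libraries of the Rbfox1 line (2 control, then 2 tKO), and at 59.1, 58.4, 9.76 and 16.5 CPM in those of the Rbfox2 line in the same order. Only the 2 Rbfox2 tKO libraries were low. It was the 1 gene of 18021 tested (0.00555%) whose line difference differed between tKO and control mice, with log2 fold changes of -2.24 in tKO and -0.23 in control mice. This count was 12 without Rbfox1 control replicate 2, 5 without Rbfox1 control replicate 3, and 2 without Rbfox2 control replicate 1 or Rbfox2 tKO replicate 1. Rbfox1 (mm10 chr16:5885355-7411526) was at 53.7, 49.7, 34.8 and 30.6 CPM in the Rbfox1 line and at 47.2, 50.8, 54.4 and 46.6 CPM in the Rbfox2 line, and its line difference did not pass (log2 fold change 0.25, SE 0.12, adjusted p = 0.175). Its 2 Rbfox1 tKO libraries were the lowest of the 8 but still held Rbfox1 reads.

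Of 17398 genes, 2407 (13.8%) passed between the lines, 1150 of them higher (6.61%) and 1257 lower (7.22%) in the Rbfox2 line. Most differences were small: 177 genes (1.02%) also had a fold change over 2, of which 46 (0.264%) were higher in that line and 131 (0.753%) lower. The 4 libraries of one line did not overlap the 4 of the other in 3218 genes (18.5%). In control mice alone 430 of 17149 genes (2.51%) passed, and in tKO mice alone 836 of 17145 (4.88%), each with 2 mice against 2. Of the genes also tested in all 8 libraries, 203 passed in both of these fits in the same direction and 0 in opposite directions, which is 47.4% of those of the control mice and 24.3% of those of the tKO mice. The count fell to 1532 without Rbfox2 tKO replicate 2 and to 1550 without Rbfox1 tKO replicate 3. With library totals in place of TMM, 755 genes were higher and 1692 lower, so the share of higher genes fell from 47.8% to 30.9%. With the counts of each pair summed, 2 pairs against 2, 1669 of 19959 genes passed, 1616 of them among the 2407. For every list of genes described here, the shares of all genes that passed (6.61% higher and 7.22% lower) are the background of its counts. The median over all genes tested was -0.0056. Long transcripts tended to be lower in the Rbfox2 line, so counts are also given after removing each library's trend with exon length and GC content, which left 1057 of 16585 genes (6.37%) higher and 907 (5.47%) lower.

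Aire was lower in mature mTEC of the Rbfox2 line. The 4 libraries of the Rbfox1 line had 1263, 1602, 1618 and 1480.4 CPM of Aire and those of the Rbfox2 line 652, 705, 702 and 925 CPM, with the controls first in each. The lowest library of the Rbfox1 line lay above the highest of the Rbfox2 line. The means were 1491 ± 164 CPM in the Rbfox1 line and 746 ± 122 CPM in the Rbfox2 line (SD, n = 4), 2.004-fold lower in the Rbfox2 line (log2 fold change -1.003, SE 0.082, adjusted p = 9.73e-08). The difference was -1.08 in control and -0.92 in tKO mice and -1.01 after the length and GC correction. With the pairs summed it was -0.99 (edgeR, adjusted p = 1.03e-05). The annotation places Aire (mm10 chr10:78030022-78043610) over part of Dnmt3l on the opposite strand, and no source used here says whether reads were counted by strand. Fezf2, the other regulator of TRA, had 641 ± 26.5 against 677 ± 55.0 CPM in the Rbfox1 and the Rbfox2 line (log2 fold change 0.080, SE 0.064, adjusted p = 0.447). Foxn1, the regulator of thymic epithelial identity whose locus drives Cre, had 354 ± 106 against 329 ± 78.3 CPM (log2 fold change -0.085, SE 0.063, adjusted p = 0.405). Neither passed, and both overlapped between the lines.

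Among 21 tested markers of mature mTEC, 3 were higher and 4 lower in the Rbfox2 line (2 and 4 after the correction), at a median of -0.079 beside -0.0056 over all genes. The 4 lower markers were Aire, the costimulatory ligand Cd80, the inhibitory ligand Cd274 (PD-L1) and Irf4, a transcription factor that acts downstream of NF-kB signals. Cd80 was at 257, 244, 244 and 226 CPM in the Rbfox1 line and at 194, 186, 217 and 218 CPM in the Rbfox2 line (log2 fold change -0.26, SE 0.068, adjusted p = 0.0152). Irf4 fell from 152 ± 3.07 to 124 ± 13.9 CPM (log2 fold change -0.29, SE 0.071) and Cd274 from 181 ± 16.1 to 152 ± 4.79 CPM (log2 fold change -0.25, SE 0.071). These 3 differences were small beside that of Aire, and each lost its call without at least 1 library (3 libraries for Cd80, 1 for Irf4, 4 for Cd274). Ccl19, a chemokine for CCR7-bearing thymocytes and dendritic cells, was low and rose from 3.76 ± 0.590 to 7.50 ± 1.48 CPM (log2 fold change 0.98, SE 0.23, adjusted p = 0.00755). Prdm1 (log2 fold change 0.71) and the MHC class II processing protease Ctss (0.21) were the other higher markers, but Prdm1 lost its call without any 1 of the 8 libraries and Ctss without any 1 of 5 and with the correction (adjusted p = 0.272). Without Rbfox2 control replicate 2, 2 markers of the list were lower.

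**Figure D1:**
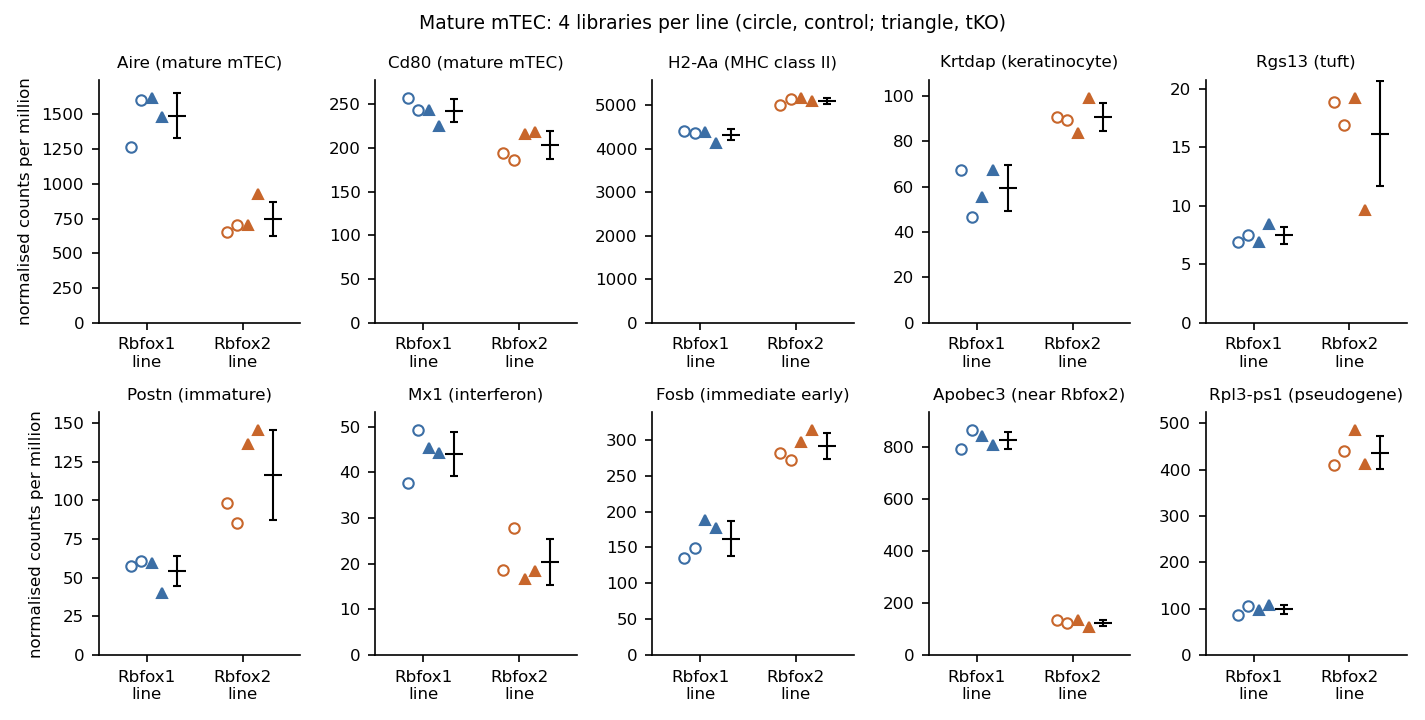
Levels of 10 genes (CPM after TMM normalization, axes from 0) in each mature mTEC library of the Rbfox1 line (blue) and the Rbfox2 line (orange), with control mice as open circles, tKO mice as filled triangles and the mean ± SD of 4 libraries in black. Aire, Cd80, Mx1 and Apobec3 were lower in every library of the Rbfox2 line than in any of the Rbfox1 line, and H2-Aa, Krtdap, Rgs13, Postn, Fosb and Rpl3-ps1 higher.

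Few single Aire-regulated TRA passed between the lines. In the part of the study's TRA classification used here, 191 of 274 Aire-regulated TRA were tested, and 5 were higher (2.62%) and 9 lower (4.71%), beside 6.61% and 7.22% of all genes. Their median was -0.081, and -0.11 after the correction, beside -0.0056 and 0.0070 over all genes. Of them 41.4% had a log2 fold change above 0, beside 8543 of all 17398 genes. Small differences of low genes are beyond the depth, so few calls do not show that these genes were unchanged. Their summed level was 3061 to 3265 CPM in the Rbfox1 line and 3048 to 3342 CPM in the Rbfox2 line, so the lines overlapped. Of 158 tested TRA outside Aire's control, 5 were higher (3.16%) and 15 lower (9.49%), Aire itself among the lower, with a median of -0.050. Without Aire, their summed level was 6678 to 7229.7 CPM in the Rbfox1 line and 6684 to 7086 CPM in the Rbfox2 line. Of 1392 tested non-TRA genes, 157 were higher (11.3%) and 83 lower (5.96%), with a median of 0.051. These classes were not tested as groups.

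Of 19 tested partners of AIRE and cofactors of promiscuous expression, 0 were higher and 4 lower, with and without the correction, at a median of -0.091 (0.026 corrected). Beside Aire these were the topoisomerase Top2a (212 ± 28.8 against 146 ± 8.21 CPM, log2 fold change -0.54), the acetyltransferase Ep300 (106 ± 7.71 against 80.0 ± 2.04 CPM, log2 fold change -0.41) and the deacetylase Sirt1, which acts on AIRE (727 ± 70.8 against 569 ± 45.5 CPM, log2 fold change -0.35). Top2a is also a gene of dividing cells. Of 22 receptors and signalling genes of NF-kB, the pathway through which RANK and CD40 induce mature mTEC, 0 were higher and 4 lower, against 6.61% and 7.22% of all genes, at a median of -0.11. Rel, an NF-kB subunit, was at 90.8, 83.6, 83.9 and 90.0 CPM in the Rbfox1 line and at 65.8, 68.2, 54.6 and 61.1 CPM in the Rbfox2 line (log2 fold change -0.48, SE 0.078, adjusted p = 4.10e-04). The inhibitor Tnfaip3 had a log2 fold change of -0.38, and the kinase subunits Ikbkb and Chuk had -0.28 and -0.29. The call of Ikbkb was lost with the length and GC correction (adjusted p = 0.470) and that of Chuk without any 1 of 4 libraries. With library totals the count of lower genes in this list was 8.

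Of 14 tested MHC class II genes, 4 were higher and 3 lower (3 and 3 after the correction), against 6.61% and 7.22% of all genes, and 7 did not pass. Their median was 0.062, and -0.029 after the correction. The structural genes H2-Aa and H2-Ab1 and the invariant chain Cd74 were higher in the Rbfox2 line, while the regulators Ciita and Rfx5 were lower. H2-Aa was at 4401, 4357, 4381 and 4139 CPM in the Rbfox1 line and at 5009.5, 5148, 5162 and 5088 CPM in the Rbfox2 line (log2 fold change 0.24, SE 0.050, adjusted p = 0.00274), which is 1.18-fold. H2-Ab1 rose from 4097 ± 86.5 to 4864 ± 92.5 CPM (log2 fold change 0.25, SE 0.049) and Cd74 from 9284 ± 461 to 11162 ± 379 CPM (log2 fold change 0.27, SE 0.052). None of these 3 overlapped between the lines. Ciita, the master coactivator of class II transcription, fell from 730.3 ± 18.2 to 590.4 ± 26.0 CPM (log2 fold change -0.31, SE 0.056, adjusted p = 0.00104), and Rfx5, a subunit of the complex that binds class II promoters, from 95.2 ± 3.23 to 70.5 ± 0.737 CPM (log2 fold change -0.43, SE 0.070, adjusted p = 3.91e-04). H2-Ob, a subunit of the peptide-loading modulator, was also lower (log2 fold change -0.29) but lost its call without any 1 of 4 libraries, and the protease Ctss was the remaining higher gene. The chain gene H2-Eb1 did not pass (log2 fold change 0.12, adjusted p = 0.126), and it was chosen after its values were seen. In control mice alone 0 genes of the list were higher and 2 lower, and in tKO mice alone 3 and 1. The sort gate was set on MHC class II at the surface, and whether the gates of both cohorts matched was not tested. Ciita lies on chromosome 16, 4.59 Mb from Rbfox1 between the lower coordinates of both gene models.

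Genes of cornified keratinocytes, which mark mTEC past the AIRE stage, were higher in the Rbfox2 line. Of 20 tested genes, 15 were higher and 0 lower, against 6.61% and 7.22% of all genes, with a median of 0.47. The levels of the whole list summed to 1591 to 2014 CPM in the Rbfox1 line and 2299 to 2607 CPM in the Rbfox2 line. Krtdap, a keratinocyte differentiation protein, was at 67.4, 46.8, 55.6 and 67.4 CPM in the Rbfox1 line and at 90.5, 89.5, 83.6 and 99.0 CPM in the Rbfox2 line (log2 fold change 0.62, SE 0.099, adjusted p = 3.46e-04). Lor (loricrin), a main protein of the cornified envelope, rose 1.74-fold from 31.6 ± 2.78 to 54.9 ± 13.6 CPM (log2 fold change 0.80, SE 0.14, adjusted p = 5.96e-04), and Flg (filaggrin), which bundles keratin filaments, 1.70-fold from 23.0 ± 6.64 to 39.6 ± 8.39 CPM. The early differentiation keratin Krt1 (61.8 ± 16.1 against 103 ± 15.6 CPM, log2 fold change 0.73) and the calcium-binding Calm4 (52.0 ± 11.9 against 87.8 ± 15.2 CPM, log2 fold change 0.76) were higher as well. All 5 of these were above the whole Rbfox1 line in each of the 4 Rbfox2 libraries. Krt10, Krt77, Ivl, Spink5, Sprr1a, Sprr1b, Cnfn, Pof1b, Cdsn and Dsc1 made up the rest, of which Krt10, Spink5 and Sprr1a kept their calls without any 1 library. The count was 11 after the length and GC correction, 8 without Rbfox2 tKO replicate 2 and 9 without Rbfox2 control replicate 2, with 0 lower genes in each case. It was 8 with DESeq2, 8 with all 16 libraries in 1 fit, 9 with the replicate number as a block and 10 with library totals, again with 0 lower.

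Tuft cells are chemosensory epithelial cells, and several of their genes were higher in the Rbfox2 line. Of 27 tested tuft genes, 11 were higher and 0 lower (9 and 0 after the correction), against 6.61% and 7.22% of all genes, with a median of 0.42. Rgs13, a regulator of G protein signalling, was at 6.95, 7.50, 6.92 and 8.49 CPM in the Rbfox1 line and at 18.9, 16.9, 19.2 and 9.64 CPM in the Rbfox2 line (log2 fold change 1.10, SE 0.20, adjusted p = 0.00106). The lines did not overlap, although Rbfox2 tKO replicate 2 came near the Rbfox1 line. Lrmp (20.5 ± 3.94 against 35.0 ± 7.37 CPM, log2 fold change 0.77), the homeobox gene Hmx3 (31.1 ± 4.22 against 46.3 ± 6.28 CPM, log2 fold change 0.58), the signalling adaptor Vav1 (10.5 ± 1.38 against 17.6 ± 4.01 CPM, log2 fold change 0.74) and the 5-lipoxygenase gene Alox5 (12.1 ± 3.08 against 21.2 ± 4.97 CPM, log2 fold change 0.82) were higher as well. The taste transduction genes Trpm5 (log2 fold change 0.49), Gnb3 (0.65) and Gng13 (0.56) and the eicosanoid genes Alox5ap (0.74) and Ptgs1 (0.46) passed as well, with the kinase Bmx (0.78). Each of these 6 lost its call without any 1 of 3 to 6 libraries. Pou2f3, the factor that tuft cells depend on, had a log2 fold change of 0.26 (adjusted p = 0.113), and it was chosen after its values were seen. The median was 0.54 in control and 0.13 in tKO mice, with 9 and 1 genes passing in these smaller fits. Only 1 of 18021 genes (0.00555%), and no tuft gene, had a line difference that passed between tKO and control mice. With so few genes passing, this does not show that the tuft difference was alike in both genotypes. The count was 7 without Rbfox1 control replicate 2, 6 without Rbfox2 control replicate 1 and 5 without Rbfox2 control replicate 2.

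**Figure D2:**
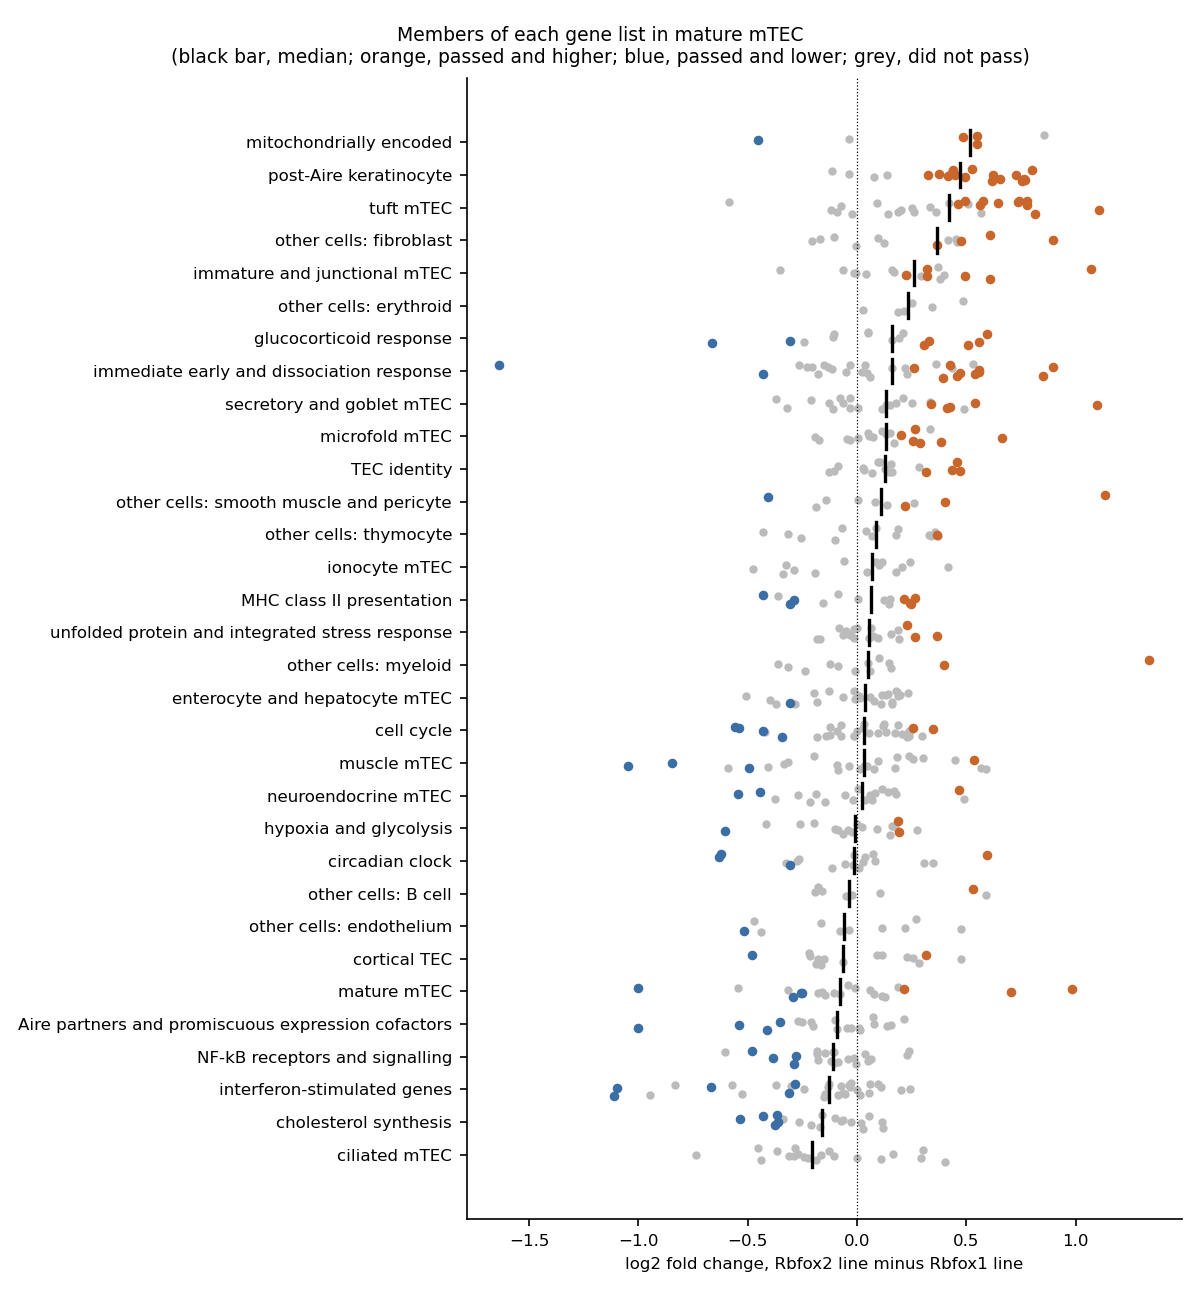
Log2 fold change of the Rbfox2 line over the Rbfox1 line in mature mTEC for every tested member of each gene list other than the sex-linked genes, ordered by the list's median (black bar). Orange members passed as higher, blue members as lower and grey members did not pass, with 15 of 20 keratinocyte and 11 of 27 tuft genes higher and 5 of 33 interferon-stimulated genes lower.

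Markers of immature and junctional mTEC and keratins of the basal layer were also higher in the Rbfox2 line, although the cells came from the MHCII high gate. Of 18 tested genes of the first list, 6 were higher and 0 lower (6 and 0 after the correction), with a median of 0.26. Postn (periostin), a matrix protein, was at 57.4, 60.9, 59.4 and 40.0 CPM in the Rbfox1 line and at 98.2, 85.4, 136 and 145 CPM in the Rbfox2 line (log2 fold change 1.07, SE 0.13, adjusted p = 2.15e-05). Its difference was 0.63 in control and 1.503 in tKO mice. Dcn (decorin) rose from 83.1 ± 12.5 to 128 ± 25.6 CPM (log2 fold change 0.61), Igfbp5 from 178 ± 14.2 to 254 ± 56.1 CPM (log2 fold change 0.49) and the keratin Krt17 from 1094 ± 83.9 to 1364 ± 61.1 CPM (log2 fold change 0.32). The transcription factor Sox4 was also higher (log2 fold change 0.22), and it lost its call without any 1 of 5 libraries. Of 17 genes of epithelial and thymic identity, 4 were higher and 0 lower (5 and 0 corrected): the basal keratins Krt14 (235 ± 22.4 against 326 ± 25.9 CPM, log2 fold change 0.47) and Krt5 (460.2 ± 12.0 against 634 ± 93.2 CPM, log2 fold change 0.46), the tight junction gene Cldn3 (log2 fold change 0.44) and the pharyngeal pouch factor Pax1 (log2 fold change 0.32).

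Postn and Dcn are also made by fibroblasts, so the fibroblast list stands beside them. Of its 13 tested genes, 4 were higher and 0 lower (5 and 0 corrected), with a median of 0.36, and the list summed to 709 to 921 CPM in the Rbfox1 line and 857 to 1089.5 CPM in the Rbfox2 line. The collagen Col1a2 had 61.6 ± 12.6 against 86.9 ± 19.3 CPM (log2 fold change 0.48), with 0.14 in control and 0.80 in tKO mice, and it lost its call without either of 2 libraries. Dpt had 6.36 ± 2.11 against 12.0 ± 3.47 CPM (log2 fold change 0.90) and lost its call without any 1 of 3, while Thy1, which thymocytes also make, rose from 81.3 ± 7.14 to 105 ± 9.43 CPM (log2 fold change 0.36). The median of the list was 0.00089 in control and 0.36 in tKO mice, and the count of higher genes was 2 without Rbfox1 tKO replicate 3 or Rbfox2 tKO replicate 2. None of the 13 genes was at 0 in all libraries. The part that fibroblast RNA has in the differences of Postn and Dcn was not tested.

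Markers of the other cell types that the CD45- EpCAM+ gate should remove are set against the same shares, 6.61% higher and 7.22% lower of all genes. Thymocyte genes gave 1 higher gene of 15 tested (Thy1), with summed levels of 281 to 294 CPM in the Rbfox1 line and 303 to 337 CPM in the Rbfox2 line. B cell genes gave 1 higher gene of 8, Cd79b (20.04 ± 1.58 against 29.0 ± 3.27 CPM, log2 fold change 0.53), and Ighm and Ighd were at 0 in all 8 libraries. Myeloid genes gave 2 higher of 13, Lyz2 (196 ± 11.5 against 258 ± 10.6 CPM, log2 fold change 0.40) and the low-count Cd209a (1.30 ± 0.470 against 3.34 ± 0.442 CPM), which lost its call without any 1 of 3 libraries, and the list summed to 359 to 391 CPM in the Rbfox1 line and 407 to 466 CPM in the Rbfox2 line. The summed thymocyte and myeloid levels did not overlap between the lines, but these sums include Thy1 and Lyz2. The thymocyte list had a median of 0.088, with 10 of 15 genes above 0. The myeloid list had a median of 0.050, with 7 of 13 genes above 0. Of 10 endothelial genes 1 was lower, the VEGF receptor Flt1 (37.7 ± 3.53 against 26.4 ± 2.78 CPM, log2 fold change -0.52). Of 10 smooth muscle and pericyte genes, 3 were higher, Tagln (13.6 ± 3.68 against 30.4 ± 11.1 CPM, log2 fold change 1.13), Rgs5 (0.22) and Acta2 (0.40), and 1 was lower, Myh11 (397 ± 27.5 against 300.3 ± 19.8 CPM, log2 fold change -0.41). Rgs5 lost its call without Rbfox1 control replicate 3 or Rbfox2 control replicate 1, and Acta2 without any 1 of the 4 control libraries. The smooth muscle myosin Myh11 lies on chromosome 16, 8.31 Mb from Rbfox1 between the lower coordinates of both gene models. Of 6 erythroid and 5 sex-linked genes, 0 passed in edgeR's test or in DESeq2 and 0 had an unadjusted p under 0.05, with log2 fold changes of 0.21 for Alas2 and 0.48 for Klf1.

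In the lists of further subpopulations, 0 to 6 genes passed in a direction, against 6.61% higher and 7.22% lower of all genes. Of 19 tested microfold genes, 6 were higher and 0 lower, but 2 higher and 1 lower after the length and GC correction. They included the phagocyte oxidase genes Ncf4 (119.9 ± 13.01 against 189.9 ± 16.7 CPM, log2 fold change 0.66) and Cyba (0.27), with Marcksl1 (0.26), Anxa5 (0.20) and the microfold receptor Gp2 (0.38), which lost its call without any 1 of 5 libraries. Ncf4 lies 1.17 Mb from Rbfox2. The calls of Cyba, Marcksl1 and Anxa5 were lost with the correction (adjusted p = 0.0618, 0.0704 and 0.201). The count was 3 without Rbfox2 tKO replicate 2.

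Of 23 tested secretory and goblet genes, 5 were higher and 0 lower (4 and 0 corrected): the club cell secretoglobins Scgb1a1 (26.7 ± 4.46 against 38.6 ± 2.34 CPM, log2 fold change 0.54) and Scgb3a2 (2.09 ± 0.582 against 4.52 ± 1.16 CPM), the WAP-domain genes Wfdc18 (0.41) and Wfdc2 (0.43), and Bpifa1 (0.34). Scgb3a2 and Bpifa1 lost their calls without any 1 of 5 and 4 libraries. The count was 3 without Rbfox1 control replicate 3, Rbfox1 tKO replicate 3 or Rbfox2 control replicate 1. It was 4 in control mice alone and 0 in tKO mice alone, 1 with the replicate number as a block and 2 with all 16 libraries in 1 fit. Of 25 muscle genes, 1 was higher, the intermediate filament Des (44.7 ± 10.4 against 64.8 ± 9.69 CPM, log2 fold change 0.53), and 3 were lower (1 and 2 corrected), the giant filament gene Neb (39.2 ± 8.39 against 21.97 ± 5.80 CPM, log2 fold change -0.85), the troponin Tnnt2 (52.5 ± 5.94 against 37.2 ± 5.60 CPM, log2 fold change -0.49) and the calcium channel Ryr1 (8.19 ± 2.50 against 3.97 ± 0.952 CPM, log2 fold change -1.05). Neb and Ryr1 have long transcripts, and the call of Ryr1 was lost with the correction (adjusted p = 0.0538). Of 20 neuroendocrine genes, Cpe was higher (0.47) and Cacna1a (-0.55) and Chgb (-0.44) lower, and Chgb lost its call without any 1 of 6 libraries. Of 26 enterocyte and hepatocyte genes 1, Hnf4g, was lower (-0.30), and it lost its call without any 1 of 5 libraries, with 0 to 3 genes of the list passing in either direction when 1 library was left out. The counts of the neuroendocrine and of the enterocyte and hepatocyte list are near the shares over all genes.

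Of 20 ciliated and 14 ionocyte genes 0 passed in edgeR's test or in DESeq2, while 4 ciliated genes (0 higher, 4 lower) and 2 ionocyte genes (1 and 1) had an unadjusted p under 0.05. With library totals, 2 ciliated genes and 1 ionocyte gene were lower. The ciliated list had the lowest median of the cell type lists apart from the sex-linked genes, -0.21 over 20 genes, with 89.5 ± 12.1 against 73.5 ± 12.1 CPM of its master regulator Foxj1 (log2 fold change -0.28, SE 0.11, adjusted p = 0.0847) and 9.11 ± 1.69 against 5.44 ± 2.60 CPM of the ciliary Ccdc39 (log2 fold change -0.74, SE 0.25, adjusted p = 0.0570). The lines overlapped in both, and 4 ciliated genes were lower without Rbfox1 control replicate 2 and 2 without Rbfox2 control replicate 1. After the correction Foxj1 passed as lower (adjusted p = 0.0415). Of the ionocyte genes, the chloride channel Cftr had a log2 fold change of -0.29 (adjusted p = 0.0693) and the cotransporter Slc12a2 0.18 (adjusted p = 0.153). Of 15 cortical TEC genes, which the Ly51- gate should leave out, Pax1 was higher and the Notch ligand Dll4 lower (53.8 ± 4.55 against 38.6 ± 4.66 CPM, log2 fold change -0.48). That count is near the 6.61% and 7.22% of all genes. After the correction 2 were higher and 2 lower, against 6.37% and 5.47% of all genes.

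Immediate early and dissociation response genes were higher in the Rbfox2 line in part. Of 31 tested genes 10 were higher and 2 lower (10 and 3 corrected), with a median of 0.16. The AP-1 gene Fosb was at 136, 149, 188 and 177 CPM in the Rbfox1 line and at 281, 272, 297 and 313 CPM in the Rbfox2 line (log2 fold change 0.85, SE 0.067, adjusted p = 6.26e-08). Fos rose from 373 ± 65.6 to 535 ± 49.1 CPM (log2 fold change 0.54), Klf2 from 59.1 ± 13.6 to 110.3 ± 31.8 CPM (0.90) and the mRNA decay factor Zfp36 from 312 ± 33.4 to 430.0 ± 12.5 CPM (0.47). Dusp1, Jun, Jund, Klf6, Hspb1 and Hspa1a were the other higher genes. Arc went against them, at 114, 122, 150.5 and 138 CPM in the Rbfox1 line and at 27.1, 28.3, 56.6 and 62.3 CPM in the Rbfox2 line (log2 fold change -1.64, SE 0.12, adjusted p = 1.54e-08), and it lies 2.41 Mb from Rbfox2. Nr4a3 was also lower (-0.43) but lost its call without any 1 of the 8 libraries. These genes respond quickly to tissue handling, and no source used here gives the sorting times. The median of the list was 0.32 in control and 0.0034 in tKO mice. In control mice alone 10 genes were higher and 1 lower, and in tKO mice alone 8 and 1.

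Of 15 glucocorticoid response genes, 5 were higher and 2 lower (3 and 1 corrected). The kinase Sgk1 rose from 75.0 ± 6.58 to 106 ± 13.7 CPM (log2 fold change 0.51), the phosphatase Dusp1, which is also an immediate early gene, from 121 ± 22.4 to 176 ± 8.95 CPM (0.56), the metallothioneins Mt1 and Mt2 by 0.33 and 0.31 on the log2 scale, and Hsd11b1, which regenerates active glucocorticoid, by 0.60. Zbtb16 (-0.66) and Per1 were lower. Hsd11b1 lost its call without Rbfox1 tKO replicate 3 or Rbfox2 tKO replicate 2, and Zbtb16 without Rbfox2 control replicate 1 or Rbfox2 tKO replicate 2. Mt1 and Mt2 lost their calls with the correction (adjusted p = 0.0511 and 0.0633), and the count of higher genes was 3 without Rbfox2 tKO replicate 2. Of 18 circadian clock genes, the repressor Nr1d1 was higher (26.6 ± 3.53 against 40.2 ± 3.69 CPM, log2 fold change 0.60) and the period genes Per1 (-0.31), Per2 (-0.62) and Per3 (-0.63) lower. The calls of Per1, Per2 and Per3 were each lost without any 1 of 5 or 6 libraries, and all 3 with the pairs summed.

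Of 33 interferon-stimulated genes, 5 were lower and 0 higher in the Rbfox2 line (4 and 0 corrected), with a median of -0.13. The antiviral GTPase Mx1 was at 37.6, 49.2, 45.3 and 44.1 CPM in the Rbfox1 line and at 18.7, 27.8, 16.7 and 18.3 CPM in the Rbfox2 line (log2 fold change -1.11, SE 0.14, adjusted p = 1.71e-05), which is 2.16-fold lower. Stat2, the interferon signal transducer, fell from 71.1 ± 6.30 to 44.8 ± 3.20 CPM (log2 fold change -0.67, SE 0.089, adjusted p = 4.54e-05), and the 2'-5' oligoadenylate synthase Oas2 from 6.71 ± 0.914 to 3.08 ± 0.990 CPM (log2 fold change -1.10). Irf1 (-0.28) and Oasl2 (-0.31) fell less, and Oasl2 lost its call without any 1 of 5 libraries. Isg15 and Ifit1, signature genes of the same response, did not pass, with -0.15 for the first (adjusted p = 0.371) and -0.034 for the second (adjusted p = 0.830), which were chosen after their values were seen.

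Of 19 cholesterol synthesis and uptake genes, 5 were lower and 0 higher (5 and 0 corrected), with a median of -0.16. The synthase Hmgcs1 fell from 163 ± 19.8 to 126 ± 15.2 CPM (log2 fold change -0.37), and the sterol carrier Stard4 (-0.37) and Insig1 (-0.43), which holds sterol regulators in the endoplasmic reticulum, were also lower. The lines overlapped in all 5, and Stard4 and Insig1 lost their calls without any 1 of 3 and 5 libraries. The count was 2 without Rbfox1 tKO replicate 2 or Rbfox2 control replicate 1, 3 without Rbfox1 control replicate 3, and 8 with library totals. Of 33 cell cycle genes, 2 were higher and 4 lower (2 and 2 corrected), which is near the 6.61% and 7.22% of all genes (6.37% and 5.47% corrected). The proliferation antigen Mki67 fell from 248 ± 32.1 to 168 ± 11.9 CPM (log2 fold change -0.56, SE 0.084, adjusted p = 1.57e-04), with Top2a, Cenpf (-0.34) and Cenpe (-0.43), while the replication helicase genes Mcm6 (0.35) and Mcm7 (0.26) were higher. Mki67 and Top2a kept their calls without any 1 library, while Cenpf, Cenpe and Mcm7 lost theirs without any 1 of 4, 3 and 7 libraries and Mcm6 without Rbfox1 tKO replicate 3. With 1 library left out, 0 to 5 genes of the list were higher and 2 to 4 lower.

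Of 19 genes of the unfolded protein and integrated stress response, 3 were higher and 0 lower (2 and 1 corrected): the serine synthesis enzyme Phgdh (561 ± 10.4 against 726 ± 85.3 CPM, log2 fold change 0.37) and the chaperones Calr (0.27) and Sdf2l1 (0.23). Of 18 hypoxia and glycolysis genes, the growth factor Vegfa was lower (53.2 ± 5.05 against 35.0 ± 6.65 CPM, log2 fold change -0.61) and the enzymes Eno1 (0.19) and Aldoa (0.19) slightly higher. Sdf2l1, Eno1 and Aldoa lost their calls without any 1 of 4, 4 and 6 libraries. The mitochondrial ribosomal RNAs mt-Rnr2 (1004 ± 79.4 against 1469 ± 31.2 CPM, log2 fold change 0.55) and mt-Rnr1 (0.49) and mt-Co1 (0.55) were higher, and mt-Nd6 (-0.45) was lower but lost its call without any 1 of 6 libraries. Only 6 of the 15 mitochondrial genes in the list could be tested, since 9 were at 0 counts in all 8 libraries, so their levels here are not those of the whole organelle.

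The largest differences were those of single genes, some of them near Rbfox2. Apobec3, a cytidine deaminase that restricts retroviruses (mm10 chr15:79891659-79915906), was at 795, 866, 843 and 808 CPM in the Rbfox1 line and at 134, 123, 133 and 109 CPM in the Rbfox2 line (log2 fold change -2.73, SE 0.070, adjusted p = 9.40e-17), 6.65-fold lower, in control (-2.70) and tKO mice (-2.77) alike in direction. Its neighbour Cbx7, a Polycomb subunit on the opposite strand whose gene model overlaps it, fell from 103 ± 5.66 to 24.4 ± 1.24 CPM (log2 fold change -2.07, SE 0.085, adjusted p = 4.73e-13). They lie 2.81 and 2.84 Mb from Rbfox2 on chromosome 15. Nptxr, a neuronal pentraxin receptor at 2.71 Mb, fell from 43.6 ± 6.03 to 14.9 ± 1.79 CPM (log2 fold change -1.55), and Shisal1 at 7.30 Mb rose from 17.4 ± 1.53 to 46.0 ± 3.20 CPM (1.39). Ly6k at 2.28 Mb rose from 4.16 ± 1.70 to 13.7 ± 4.76 CPM (1.73). Rac2, a GTPase of the phagocyte oxidase on the same chromosome (1.48 Mb), rose from 272 ± 54.1 to 461 ± 54.3 CPM (0.77), and it was chosen after its values were seen.

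All distances in this text run between the lower coordinates of 2 gene models. On the higher side of a deleted gene they therefore include its own length, for Rbfox1 from 5885355 to 7411526 on chromosome 16. Within 10 Mb of Rbfox2, 58 of 254 tested genes passed (22.8%), 28 higher and 30 lower, against 17.1% on the rest of chromosome 15 and 13.8% on the other chromosomes. With a fold change over 2, they were 8 of 254 (3.15%), against 0.733% and 0.816%. By distance, 18 of 104 genes passed under 2 Mb from the gene (17.3%), 27 of 88 between 2 and 5 Mb (30.7%) and 13 of 62 between 5 and 10 Mb (20.97%), with 0, 7 and 1 over 2-fold. The count of 58 was the same after the length and GC correction. Of all chromosomes, 15 had the highest share (19.4%) and X the lowest (10.04%). Within 10 Mb of Rbfox1 on chromosome 16, 19 of 92 genes passed (20.7%) against 11.1% on the rest of that chromosome, 9 higher and 10 lower, with 6 of 35 under 2 Mb, 6 of 22 between 2 and 5 Mb and 7 of 35 beyond. The 5 of smallest p were the RNA-binding Zc3h7a (85.7 ± 9.57 against 50.7 ± 3.73 CPM, log2 fold change -0.75), Tvp23a (175 ± 12.7 against 266 ± 29.7 CPM, 0.60), Myh11, Gm23935, which lies within Zc3h7a on the opposite strand (0.43), and Ciita. Neighbouring genes share regulation and are not independent, so these shares are descriptions with no test.

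**Figure D3:**
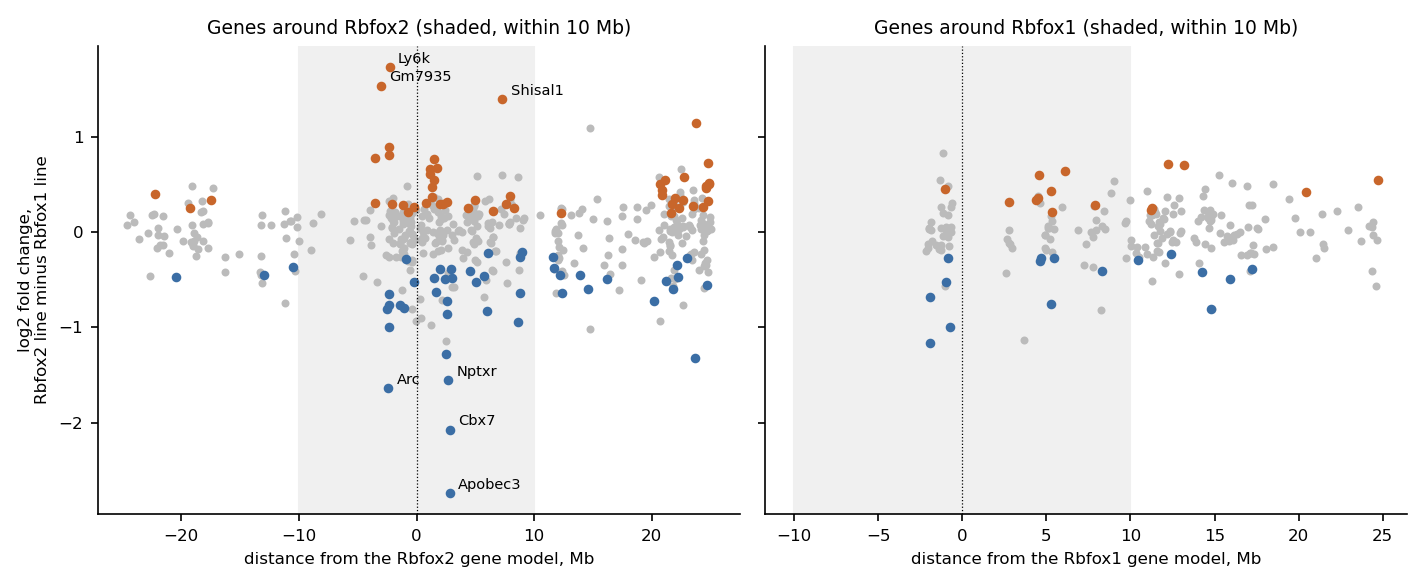
Log2 fold change of the Rbfox2 line over the Rbfox1 line in mature mTEC against the distance of each gene model from that of Rbfox2 (left, chromosome 15) and Rbfox1 (right, chromosome 16) in megabases, with Rbfox2 and Rbfox1 left out. Distances run between the lower coordinates of the gene models. Orange and blue genes passed as higher and lower, grey genes did not, and 58 of 254 genes in the shaded 10 Mb around Rbfox2 and 19 of 92 around Rbfox1 passed.

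Several of the largest differences concern pseudogenes or low counts. The pseudogene Rpl3-ps1 was at 86.7, 106, 96.4 and 108 CPM in the Rbfox1 line and at 411, 439, 485 and 411 CPM in the Rbfox2 line (log2 fold change 2.14, SE 0.076, adjusted p = 3.91e-14), 4.40-fold higher. Its parent gene Rpl3, a ribosomal protein gene 2.999 Mb from Rbfox2, fell from 920.0 ± 49.7 to 659.8 ± 18.5 CPM (-0.48) and was chosen after its values were seen. Reads from near-identical copies can be split between them, so which of the 2 loci gave the reads is uncertain. The same holds for Gm13304, a copy in the Ccl21 gene family, with 0 to 3 counts in the Rbfox1 line and 30 to 59 in the Rbfox2 line (5.08), and it was not examined for Gm3226 (3.14), Gm7935 (1.53), Gm14150 (1.55) and Gm28661 (1.51). Gm7935 lost its call without Rbfox2 control replicate 1. Egr4, an immediate early factor, rose from 1.14 ± 0.532 to 3.43 ± 0.896 CPM (1.59) and lost its call without Rbfox2 control replicate 2. In the other direction, Gm6713 (2.55 ± 0.445 against 0.319 ± 0.318 CPM, log2 fold change -2.91), the signal recognition gene Srp54a (5.50 ± 1.28 against 0.800 ± 0.414 CPM, -2.72), which has close copies, the immunoproteasome gene Psmb8 (3.43 ± 1.56 against 0.697 ± 0.470 CPM, -2.26), Snhg11 (-1.89), Mir145a (-1.88), Olfr1372-ps1 (-1.78), Gm20597 (-1.74) and E030030I06Rik (-1.74) completed, with Apobec3 and Cbx7, the 10 genes with the largest decrease. Mir145a lost its call without Rbfox1 tKO replicate 2, and Gm20597 without that library or Rbfox2 control replicate 1. Psmb8 overlaps another gene model on the opposite strand, and reads of both cannot be told apart without strand.

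Genes with long transcripts were lower and genes with short transcripts higher in the Rbfox2 line. By quintiles of annotated exon length, the median log2 fold change went from 0.11 in the shortest quintile (53 to 2043 bases) through 0.072, 0.015 and -0.045 to -0.12 in the longest (7165 to 123179 bases). In the shortest quintile 11.2% of genes passed as higher and 2.44% as lower, and in the longest 1.93% and 17.7%. GC content gave medians between -0.039 and 0.031 over its quintiles. After the correction for both, 1541 of the 2407 genes still passed, in a fit of the 16585 genes with known length and GC content. Assembled loci among the 2407 were not in that fit.

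**Figure D4:**
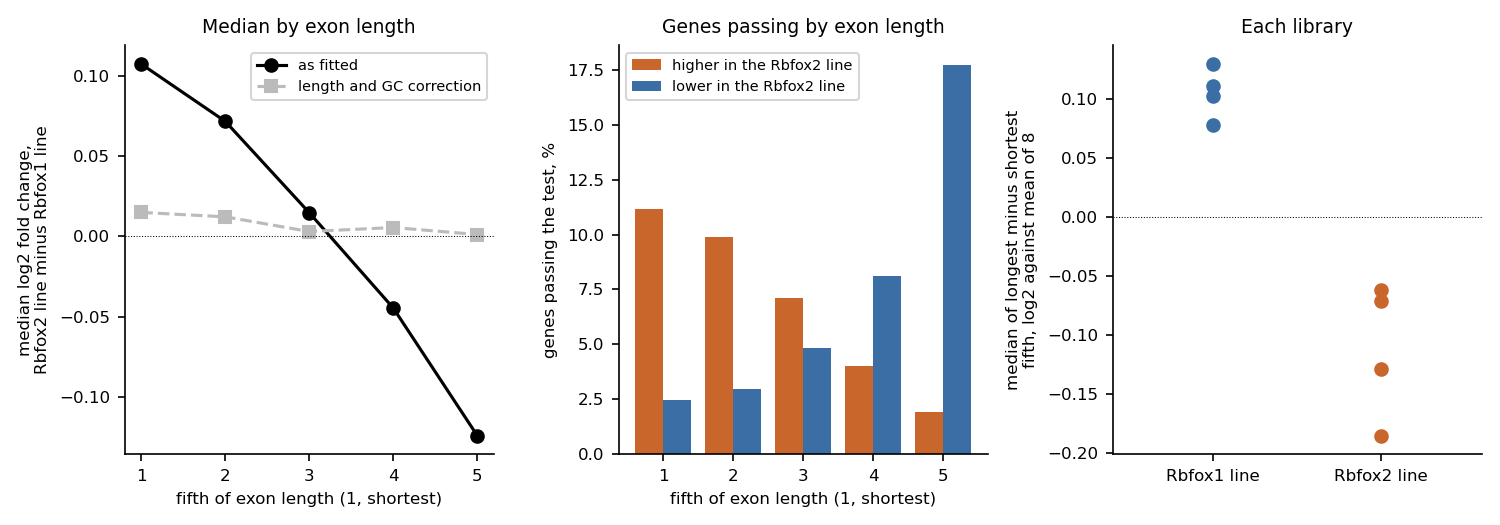
Left, median log2 fold change of the Rbfox2 line over the Rbfox1 line in quintiles of exon length, as fitted (black) and after the length and GC correction (grey). Middle, percent of genes in each quintile that passed as higher (orange) or lower (blue), from 11.2% higher in the shortest to 17.7% lower in the longest quintile. Right, for each of the 8 libraries, the median of the longest minus that of the shortest quintile on the log2 scale, relative to the mean of all 8, which is positive in the 4 libraries of the Rbfox1 line and negative in the 4 of the Rbfox2 line.

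Transcripts of splicing regulation were among the lower genes, chosen after their values were seen. The kinases Clk1 and Clk4, which phosphorylate SR proteins, fell from 126 ± 12.2 to 65.9 ± 9.54 CPM (log2 fold change -0.92, SE 0.090, adjusted p = 1.23e-06) and from 53.2 ± 5.17 to 26.5 ± 2.60 CPM (log2 fold change -0.997). Rsrp1 was at 144, 185, 181 and 189.9 CPM in the Rbfox1 line and at 93.1, 73.8, 85.0 and 74.6 CPM in the Rbfox2 line (log2 fold change -1.10, SE 0.091, adjusted p = 1.13e-07). The cyclins Ccnl1 (-0.90) and Ccnl2 (-0.95), the splicing factor Rbm5 (-0.79), Nktr (-0.71), Leng8 (-0.92) and the nuclear RNA Neat1 (-0.95) were lower as well. All 9 passed after the length and GC correction, with -0.82 for Clk1 and -0.46 for Nktr. Counts per gene do not separate spliced from intron-retaining transcripts of these genes. As they were picked for their values, they say nothing of splicing genes as a class.

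The number of detected genes was lower in the Rbfox2 line. With every library thinned to 3737884 counts, 31422 to 33071 rows of the table had at least 1 count in the Rbfox1 line and 30833 to 31358 in the Rbfox2 line. The means were 32381 ± 790.0 and 31176 ± 238 (SD, n = 4), a difference of -1205 genes (exact two-sided permutation test, p = 0.0286, which is the smallest value that 70 divisions of 8 libraries into 4 and 4 allow). Among Ensembl genes alone the difference was -602.5 (p = 0.0571, exact permutation test), and at 5 or more counts it was -526 (p = 0.0571, exact permutation test). Over the means of the 2 pairs of each line, which differed by the same -1205 genes, the exact permutation p was 0.333, the smallest that 6 divisions allow. The 35943 assembled loci without an Ensembl identifier took 0.897% to 1.10% of the counts.

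Immature mTEC of the same mice, sorted with MHC class II low, gave the same line comparison for the earlier stage. In immature mTEC 1462 of 12627 genes (11.6%) were higher and 1568 (12.4%) lower in the Rbfox2 line, and for 1335 of 17442 genes (7.65%) the line difference itself differed between the populations in a fit with mouse as a block. Aire was lower in both, with log2 fold changes of -1.003 in mature and -2.71 in immature mTEC (difference of the differences 1.70, adjusted p = 7.56e-22). In immature mTEC it was at 211 to 296 CPM in the Rbfox1 line and at 19.5 to 53.5 CPM in the Rbfox2 line. Cd80 and Irf4 also fell more in immature mTEC (-1.74 and -1.39), and 10 of 21 tested markers of mature mTEC had a line difference that differed between the populations. Fezf2 had log2 fold changes of -0.51 in immature (adjusted p = 1.05e-04) and 0.080 in mature mTEC, and these differed (adjusted p = 5.11e-08).

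Cell cycle genes differed between the populations. In immature mTEC 31 of 33 were lower and 0 higher in the Rbfox2 line, with a median of -1.05 beside 0.033 in mature mTEC, and 30 of 33 passed for a difference between the populations. Mki67 had log2 fold changes of -1.58 in immature and -0.56 in mature cells. Fibroblast genes went the other way, with 11 of 11 tested higher in immature mTEC at a median of 2.02, and 6 of 9 endothelial genes were higher there at 1.47. Postn was higher by 2.51 in immature and by 1.07 in mature mTEC (adjusted p of the difference = 4.73e-12), and Col1a2 by 2.23 and 0.48. Among keratinocyte genes 1 of 20 passed in immature mTEC, and Krt1 was the 1 gene of that list whose difference differed (adjusted p = 0.00768), so a difference between the populations was shown for that gene alone. Tuft genes were higher in both, with 14 of 24 in immature mTEC, and 2 of the list differed between the populations. Apobec3 and Cbx7 had log2 fold changes of -2.43 and -2.20 in immature mTEC. Immature libraries were shallower, and the mature and immature cells of a mouse share its cohort.

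**Figure D5:**
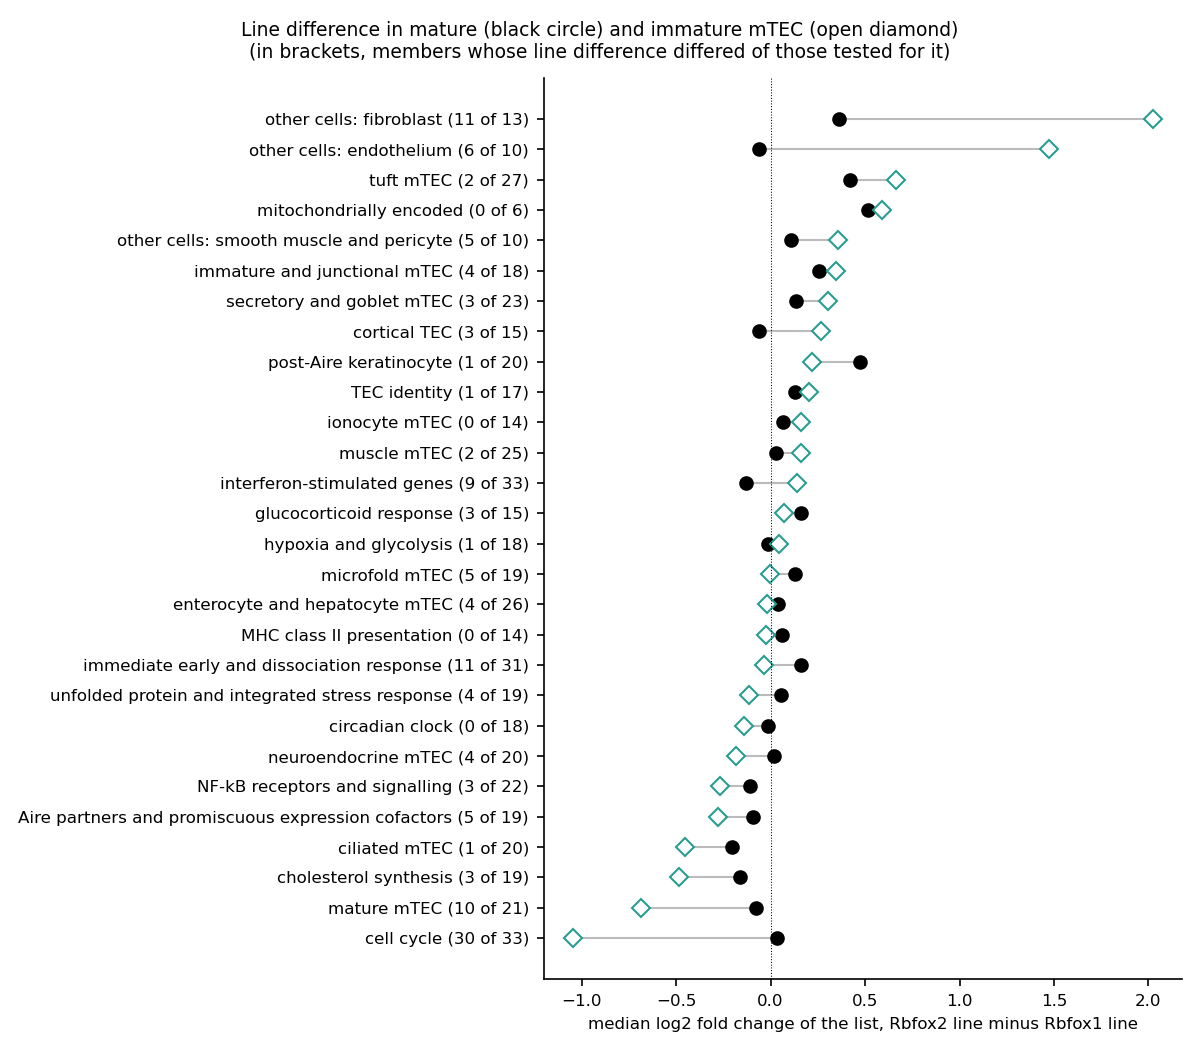
Median log2 fold change of the Rbfox2 line over the Rbfox1 line for each gene list with at least 5 members tested in immature mTEC, in mature (black circles) and immature mTEC (open diamonds), with the number of members whose line difference differed between the populations in brackets. The cell cycle list is at 0.033 in mature and -1.05 in immature mTEC, and the fibroblast list at 0.36 and 2.02.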

How the data were processed

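Mature (and, for comparison, immature) mTEC of 8 mice were profiled by RNA sequencing. The authors deposited raw counts per gene in 1 table of 89407 rows, 53464 of them Ensembl genes and 35943 assembled loci. By the submitters' notes on processing, reads went through HISAT2 2.1.0, featureCounts 1.6.0 and Picard 2.10.9 (build mm10), and the column names show removal of duplicates and down-sampling to 14500000 (mature) or 10000000 (immature). No source used here says whether counting used strand. All columns belonged to a sample (0 without). Replicates of a group differed by more than sampling noise (chi-square per degree of freedom 1.87 to 3.00).

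Counts of the 8 mature libraries were fitted with edgeR 4.0.16 in R 4.3.3 (filterByExpr with a minimum count of 10, TMM, quasi-likelihood test, line and genotype as terms, 5 residual degrees of freedom, Benjamini-Hochberg adjustment). The line by population fit used all 16 libraries with mouse as a block. The detected gene count used an exact permutation test. Symbols, coordinates and exon lengths came from GENCODE annotation of GRCm38, whose coordinates are those of mm10. Alternatives were DESeq2 1.42.0, other scalings, filters, covariates and samples, and each library left out. The length and GC correction was added after seeing the data, and so was a fit on counts summed over the control and the tKO mouse of the same line and sex, littermates by the methods (4 sums, 2 residual degrees of freedom). The female minus male difference of control mice correlated with that of tKO mice at 0.0827 in the Rbfox1 and 0.0328 in the Rbfox2 line (16043 autosomal genes). On data simulated for the line difference in mature mTEC (17097 genes), 61.5% of genes changed 1.5-fold, 81.8% changed 2-fold and 100% changed 4-fold were recovered, with 14 unchanged genes called.

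The members and the 33 gene lists were chosen with earlier results of these data known. Named genes were Aire, Fezf2, Foxn1, Rbfox1 and Rbfox2, up to 5 called genes of each list by smallest p (2 where none passed), the 10 largest differences in each direction among called Ensembl genes whose lines did not overlap and whose higher line averaged at least 1 CPM, and up to 5 called genes within 10 Mb of each deleted gene. Other called list members are given with a value or by name alone, and genes named outside this rule are marked as chosen after their values were seen. A few genes that the rule names are not reported here, and the counts include them.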

Additional observations from a re-analysis of the deposited data

Results flagged for a closer look

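In 15 of the named genes, 1 of the 4 mature libraries of a line stood apart from the other 3 of its line by more than Dixon's test allows. Chance gives such a flag in about 1 in 20 groups, and both lines were examined for each of 150 named genes. The library that stood apart was the highest for Cd274 in Rbfox2 control replicate 1 (159 CPM against 149 to 150.2 CPM), Lrmp in Rbfox2 control replicate 2 (46.0 CPM against 30.9 to 31.7 CPM), Ccdc39 in Rbfox2 control replicate 1 (9.34 CPM against 3.902 to 4.30 CPM) and Thy1 in Rbfox1 tKO replicate 2 (92.0 CPM against 77.5 to 77.9 CPM). The same held for Cd79b in Rbfox1 control replicate 2 (22.4 CPM against 18.9 to 19.4 CPM), Nptxr in Rbfox1 control replicate 3 (52.5 CPM against 39.3 to 41.3 CPM) and Rpl3 in Rbfox1 control replicate 3 (994 CPM against 888 to 903 CPM). It was the lowest for H2-Aa in Rbfox1 tKO replicate 3 (4139 CPM against 4357 to 4401 CPM), Postn in Rbfox1 tKO replicate 3 (40.0 CPM against 57.4 to 60.9 CPM), Foxj1 in Rbfox1 control replicate 2 (71.5 CPM against 93.6 to 97.3 CPM) and Insig1 in Rbfox1 tKO replicate 3 (25.7 CPM against 37.5 to 39.8 CPM). The same held for E030030I06Rik in Rbfox1 control replicate 3 (4.41 CPM against 7.37 to 7.82 CPM), Zc3h7a in Rbfox1 control replicate 2 (71.5 CPM against 88.8 to 92.2 CPM), Rbm5 in Rbfox1 control replicate 2 (113 CPM against 141 to 143 CPM) and Leng8 in Rbfox1 control replicate 2 (61.1 CPM against 77.7 to 79.9 CPM).

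For 41 of 149 named genes tested, the line difference in mature mTEC differed from that in immature mTEC of the same mice by edgeR's test of the difference itself. Over all genes this held for 1335 of 17442 (7.65%). Most named genes were chosen because they passed between the lines in mature mTEC, which is 1 side of this difference. Their share is therefore not a result about them. Values are the mature minus the immature log2 fold change of the Rbfox2 over the Rbfox1 line. The difference was above 0, so the mature value was the greater, with 1.70 for Aire, 1.55 for Cenpe, 1.47 for Cd80, 1.09 for Irf4, 1.02 for Mki67 and 0.98 for Tvp23a. Further values of this sign were 0.92 for Cenpf, 0.73 for Mcm6, 0.73 for Cyba, 0.73 for Rac2, 0.69 for Rbfox1 and 0.67 for Sirt1. Further values of this sign were 0.67 for Top2a, 0.67 for Shisal1, 0.65 for Phgdh, 0.64 for Krt1, 0.64 for Rpl3-ps1 and 0.64 for Fosb. Further values of this sign were 0.60 for Ncf4, 0.59 for Fezf2, 0.57 for Ccnl1, 0.51 for Tagln and 0.50 for Clk1. Further values of this sign were 0.35 for Dusp1, 0.30 for Marcksl1 and 0.25 for Rpl3. It was below 0 with -2.17 for Snhg11, -1.75 for Col1a2, -1.70 for Hsd11b1, -1.44 for Flt1, -1.41 for Postn and -1.32 for Dpt. Further values of this sign were -1.17 for Thy1, -1.15 for Cpe, -1.10 for Dcn, -0.81 for Nptxr, -0.44 for Stat2 and -0.43 for Oasl2. Further values of this sign were -0.37 for Gm23935, -0.36 for Acta2 and -0.30 for Apobec3. The line difference of Rbfox2 itself differed between tKO and control mice of mature mTEC, by -2.02 on the log2 scale, and Rbfox2 is the gene deleted in the tKO mice of that line.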

How the results depend on the processing

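Aire stayed lower in the Rbfox2 line and passed under every alternative run. The number of genes passing between the lines was 1553 with DESeq2, 430 in control mice alone, 836 in tKO mice alone, and 1532 to 2303 with 1 library left out. With a fold change over 2 it was 91 with DESeq2, 320 with no filter on low counts, 69 with at least 10 counts in every library, 80 in control mice alone and 147 to 229 with 1 library left out. Replicate numbers pair the control and the tKO mouse of the same sex within a line, but the lines share only number 2, so a fit with the number as a replicate block compares the lines in these mice alone: it gave 1168 genes, 115 with a fold change over 2, and 6 whose line difference differed between tKO and control mice. That last count was 15 with no filter and 1 to 12 with 1 library left out. The count of genes whose line difference differed between mature and immature mTEC was 442 with DESeq2, 873 with no replicate block for mouse, and 1076 to 1263 with 1 mouse left out. The difference in detected genes was -526 at 5 or more counts, -602.5 among Ensembl genes, -1205 over the means of sex-matched pairs (exact permutation p = 0.333), and -1525 to -975 with 1 library left out, where the exact permutation p was 0.0286 or 0.0571. Directions turned for Acta2 in tKO mice alone (-0.0092), for Foxn1 (0.0092) and Rbfox1 (-0.078) in control mice alone, for Xist (-1.35 to 0.18 with 1 library left out), and for Kdm5d with the replicate block (3.21) and with 1 library left out (-1.46 to 0.27). Of these, Acta2 alone had passed. Of 139 named genes that passed, 102 kept their call without any 1 library, and Acta2, Aldoa, Anxa5, Bpifa1, Eno1, Rgs5 and Sdf2l1 lost theirs with library totals. Calls were lost by 53 of the 139 with the replicate block, 17 with the length and GC correction, 16 with sex-matched pairs summed (1669 genes passing in all, 183 with a fold change over 2) and 12 with DESeq2. The 16 were Aldoa, Anxa5, Cd274, Cenpf, Chgb, Chuk, Eno1, Hnf4g, Insig1, Marcksl1, Oasl2, Per1, Per2, Per3, Sdf2l1 and mt-Nd6. Of the 53, Cacna1a, Calr, Ccl19, Cd79b, Cpe, Des, Dll4, Flt1, Gm6713, Igfbp5, Irf1, Krt1, Oas2, Olfr1372-ps1, Pax1, Psmb8, Rbfox2, Scgb1a1, Sirt1, Snhg11, Tnfaip3, Vav1, Vegfa and Wfdc18 had kept theirs without any 1 library. Library totals moved the median of all genes from -0.0056 to -0.054. The causes were not tested. With 4 mice a line and 3737884 to 4636367 counts each, small differences of low genes are beyond the depth.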
